A study of Mus musculus with 6 samples.

Results

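The expression of 42 genes that carry glucose carbon through glycolysis, pyruvate dehydrogenase and the tricarboxylic acid (TCA) cycle was examined in infarcted mouse hearts with and without the thymic stromal lymphopoietin (TSLP) receptor. The genes are chosen by name, and the rule that picks them uses no measured value, although it was written with earlier results of these data known. They fall into 19 genes of glucose uptake, glycolysis and lactate formation and 23 genes of pyruvate entry and the TCA cycle. The deposited table lists 54532 genes, and the 42 symbols occupy 43 of its entries, because Aldoa appears under a second identifier. That second Aldoa entry held 24 fragments over all libraries and was not tested, and each of the 42 symbols was tested through its main entry.

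Glycolysis splits glucose into pyruvate in the cytosol and yields a small amount of ATP without oxygen, and lactate dehydrogenase can then turn pyruvate into lactate. In the mitochondria, the pyruvate dehydrogenase complex converts pyruvate to acetyl-CoA, which the TCA cycle oxidises while it loads the carriers that feed the respiratory chain. The healthy adult heart draws most of its ATP from mitochondrial oxidation and is rich in these enzymes, whereas fibroblasts and activated macrophages of a healing infarct rely more on glycolysis. Several glycolytic steps have one isoform that is typical of muscle and another that is found in most cells.

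The libraries were made from the infarct and its border in hearts taken on day 7 after permanent ligation of the left anterior descending coronary artery. WT mice were adult male C57BL/6J and the TSLPR knockout (TSLPR KO) mice lacked Crlf2, which encodes the receptor chain that binds TSLP, on a C57BL/6J background. There were 3 mice per genotype with 1 library each, all hearts were infarcted, and no uninjured heart was among the libraries. WT and Crlf2-/- mice came from different suppliers, so supplier and genotype cannot be told apart. Crlf2 transcripts were still counted in Crlf2-/- hearts, with 437, 651 and 667 fragments against 917, 813 and 707 in WT hearts, and all Crlf2-/- libraries lay below all WT libraries. The extraction text in the labels speaks of retina, but the 8 retina markers examined did not exceed 0.117 FPKM in any library.

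Values are fragments per kilobase of gene length, scaled to the size of the library (FPKM), so that levels can be compared between genes as well as between libraries. They rested on 18508646 to 19682428 fragments per library on listed genes. Differences are Crlf2-/- minus WT on the scale of log2(FPKM + 0.1), which understates changes of low genes, and were tested with limma over 15520 genes with Benjamini-Hochberg adjustment. Genes past both an adjusted p of 0.05 and a log2 difference of 0.5 in either direction were called, which held for 0.0129% of those tested. The p-values measure the spread among 3 mice per genotype.

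The Crlf2-/- replicate 2 library stood apart. Of 11 markers of fast skeletal muscle, 10 were highest in it, and Mylpf, a myosin light chain of that muscle, stood at 147 FPKM there and at no more than 0.782 FPKM elsewhere. The markers summed to 409 FPKM in that library and to between 5.12 and 15.1 FPKM in the other 5. Because skeletal muscle is rich in several of the enzymes described here, the main counts are also given without this library, and the part of these transcripts in the values was not tested otherwise. WT replicate 3 held a lung transcript, with surfactant gene Sftpc at 8.30 FPKM and at no more than 0.344 FPKM in the other 5 libraries. Without that library the median log2 difference was -0.22 over the 23 pyruvate and TCA cycle genes and -0.09 over the 19 glycolysis genes.

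None of the 42 genes was called different between Crlf2-/- and WT hearts (limma, 0 called, and 0 called by voom on fragments). In limma, 3 of the 42 reached an unadjusted p under 0.05, as did 1021 of all 15520 genes tested. Adjusted p-values of the 42 genes ran from 0.355 to 0.999 and did not go below 0.333 under any alternative. Within that limit the arms of the pathway differed in how their values lay. For the TCA arm, 22 of 23 genes had a lower mean in Crlf2-/- hearts, where 50.9% of all genes tested did, and the median log2 difference was -0.19 (-0.185) against -0.0042 over all genes tested. For glycolysis, 7 of 19 genes had a lower mean and the median log2 difference was 0.01 (0.00736).

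The heat map of the members shows these arms side by side, with the TCA arm mostly below its WT means in Crlf2-/- libraries and the glycolysis genes on both sides of theirs.

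**Figure D1:**
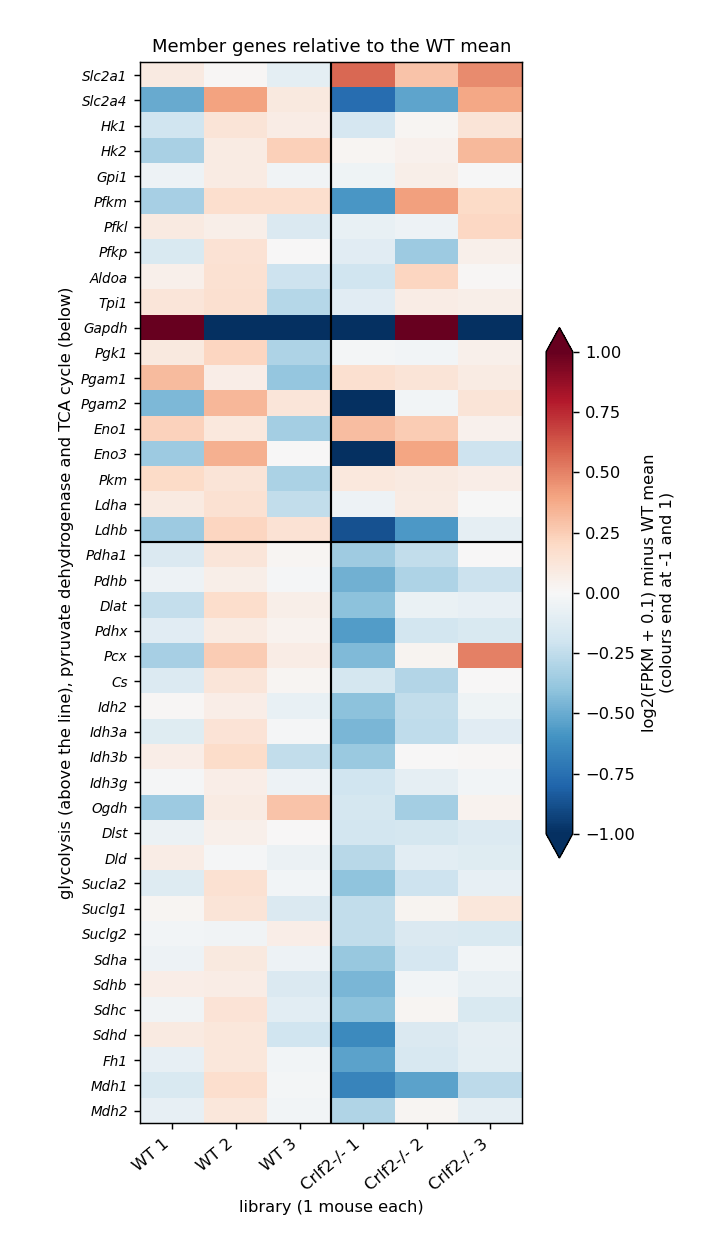
Each row is a member gene and each column a library from 1 mouse, WT on the left and Crlf2-/- on the right of the vertical line. Colour gives log2(FPKM + 0.1) minus the WT mean of that gene, with colours ending at -1 and 1. Below the horizontal line, 21 of the 23 TCA cycle and pyruvate dehydrogenase genes are lowest in Crlf2-/- replicate 1. Gapdh runs past the colour scale, as do Pgam2 and Eno3 in Crlf2-/- replicate 1.

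Sorted by library, the median of the 23 TCA arm genes relative to their WT means was -0.06, 0.11 and -0.02 in WT and -0.40, -0.16 and -0.08 in Crlf2-/- hearts. The highest Crlf2-/- value thus lay just below the lowest WT value, and the libraries of each genotype were spread widely. Crlf2-/- replicate 1 had the lowest level of 21 of the 23 genes and WT replicate 2 the highest of 19. The same median over the 19 glycolysis genes was 0.05, 0.14 and -0.10 in WT and -0.11, 0.07 and 0.06 in Crlf2-/- hearts, and the groups overlapped. The glycolysis median minus the TCA arm median, taken within a library, was 0.11, 0.03 and -0.08 in WT and 0.29, 0.23 and 0.14 in Crlf2-/- hearts. Every Crlf2-/- library therefore had the larger gap between the arms. This gap is a description of lists chosen with earlier results known and carries no p-value.

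Without Crlf2-/- replicate 2, which held the skeletal muscle transcripts, 22 of 23 TCA arm genes still had a lower mean (51.2% of all genes tested), with a median of -0.20. Glycolysis then had 12 of 19 genes lower and a median of -0.03, so its direction turned with that library. It also lay below 0 without Crlf2-/- replicate 3, at -0.02 (-0.0196), and without WT replicate 3, at -0.09. Without Crlf2-/- replicate 1 the TCA arm had 20 of 23 genes lower (50.8% of all genes tested) and a median of -0.12, a change of more than 1.5 times. The median gap between the arms was 0.19 over all libraries and stayed between 0.12 and 0.25 with any single library removed.

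Heart muscle transcripts were also lower in mean in Crlf2-/- hearts. All 15 cardiomyocyte markers had a lower mean in Crlf2-/- hearts, 4 of them at an unadjusted p under 0.05 (3.36% of all genes tested) and 0 called, with a median log2 difference of -0.61. That median ran from -0.88 without Crlf2-/- replicate 3 to -0.38 without Crlf2-/- replicate 1 and was -0.39 without WT replicate 2. The summed FPKM of the markers was 1257, 2332 and 2131 in WT and 972, 882 and 1666 in Crlf2-/- hearts, ranges that overlap. WT replicate 1 lay below Crlf2-/- replicate 3 in this sum, while its TCA arm median was the higher, -0.06 against -0.08. The marker median relative to WT means was -0.51, 0.20 and 0.27 in WT. In Crlf2-/- hearts it was -0.99, -0.73 and -0.03. Crlf2-/- replicate 1 was lowest by both this median and the TCA arm median, and Crlf2-/- replicate 2 had the lowest sum. Actc1, cardiac actin, and Atp2a2, the calcium pump of the sarcoplasmic reticulum, were the most abundant of the markers. The part of these transcripts in the TCA arm values was not tested, and in bulk tissue fewer cardiomyocytes and less RNA per cardiomyocyte cannot be told apart.

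**Figure D2:**
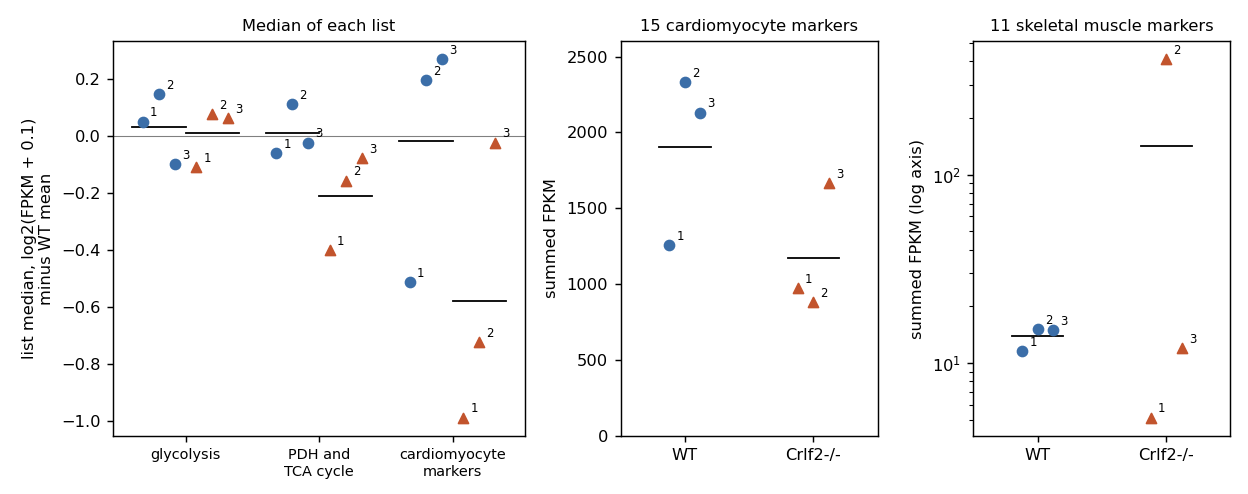
The left panel gives, for each library, the median over a list of log2(FPKM + 0.1) minus the WT mean, and the other panels give the summed FPKM of 15 cardiomyocyte and 11 skeletal muscle markers, the last on a log axis. Circles are WT, triangles Crlf2-/-, numbers the replicates and lines the mean of 3 mice. In the skeletal muscle panel Crlf2-/- replicate 2 stands at 409 FPKM and every other library below 16 FPKM.

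Glucose uptake held the member with the smallest p-value. Slc2a1 (ENSMUSG00000028645, chromosome 4, 119108711 to 119137983, plus strand) encodes GLUT1, the glucose transporter of most cells, which takes up glucose without insulin. It stood at 7.25, 6.84 and 6.33 FPKM in WT and at 10.1, 8.28 and 9.45 FPKM in Crlf2-/- hearts. Every Crlf2-/- library exceeded the highest WT library, as for 5.37% of the genes tested. The means were 6.80 ± 0.459 and 9.29 ± 0.942 FPKM (SD, n = 3), a log2 difference of 0.44 (SE 0.115) with an adjusted p of 0.355 in limma. It was the only member higher at an unadjusted p under 0.05, which 3.22% of genes tested reached, and without Crlf2-/- replicate 2 its log2 difference was 0.52.

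Slc2a4, which encodes GLUT4, the insulin-dependent transporter of muscle and fat, had 2.51, 4.80 and 3.85 FPKM in WT and 2.08, 2.47 and 4.75 FPKM in Crlf2-/- hearts, and the groups overlapped. Hk1 and Hk2 encode the hexokinases that trap glucose as glucose 6-phosphate. Hk1 lay between 9.05 and 11.4 FPKM and Hk2 between 5.41 and 8.51 FPKM over the 6 libraries, with log2 differences of -0.0042 and 0.13.

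In the TCA arm, 2 genes were lower at an unadjusted p under 0.05, Mdh1 and Pdhb, where 3.36% of all genes tested were. Mdh1 (ENSMUSG00000020321, chromosome 11, 21556787 to 21572367, minus strand) encodes the cytosolic malate dehydrogenase, which passes reducing equivalents from glycolysis to the mitochondria through the malate-aspartate shuttle. It stood at 86.8, 108 and 95.2 FPKM in WT and at 60.8, 66.4 and 80.2 FPKM in Crlf2-/- hearts. No Crlf2-/- library reached the lowest WT library. The means were 96.8 ± 10.8 and 69.1 ± 9.99 FPKM (SD, n = 3), with a log2 difference of -0.49 (SE 0.143), or 0.713 times the WT level, and an adjusted p of 0.456 in limma. Mdh2, its mitochondrial counterpart within the cycle, ran from 31.7 to 42.3 FPKM with overlapping groups and a log2 difference of -0.13.

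Pdhb (ENSMUSG00000021748, chromosome 14, 8165996 to 8173025, minus strand) encodes the beta subunit of pyruvate dehydrogenase E1, the enzyme that decarboxylates pyruvate. Its levels were 19.6, 21.2 and 20.2 FPKM in WT and 14.5, 16.4 and 17.5 FPKM in Crlf2-/- hearts, again without overlap. The log2 difference was -0.33 (SE 0.105) with an adjusted p of 0.514 in limma.

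The start regions of these 3 genes are shown because theirs are the members with the smallest p-values. They come from RefSeq on GRCm38.p6 and run from 250 bases before to 50 bases after the RefSeq start, whose position can differ from the gene ends in the deposited table. Bases are in lower case, 5′ to 3′ on the strand of the gene, and capitals mark ACGTG or its reverse complement, the core of the hypoxia response element bound by HIF-1. The Slc2a1 region is chr4:119108495-119108794 on the plus strand, the Mdh1 region chr11:21571885-21572184 on the minus strand and the Pdhb region chr14:8172943-8173242 on the minus strand.
Slc2a1: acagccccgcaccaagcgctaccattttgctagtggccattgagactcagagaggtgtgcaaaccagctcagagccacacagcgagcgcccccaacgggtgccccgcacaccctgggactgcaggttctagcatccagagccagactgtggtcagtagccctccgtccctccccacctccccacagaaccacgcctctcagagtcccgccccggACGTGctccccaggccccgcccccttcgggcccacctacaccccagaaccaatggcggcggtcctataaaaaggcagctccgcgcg
Mdh1: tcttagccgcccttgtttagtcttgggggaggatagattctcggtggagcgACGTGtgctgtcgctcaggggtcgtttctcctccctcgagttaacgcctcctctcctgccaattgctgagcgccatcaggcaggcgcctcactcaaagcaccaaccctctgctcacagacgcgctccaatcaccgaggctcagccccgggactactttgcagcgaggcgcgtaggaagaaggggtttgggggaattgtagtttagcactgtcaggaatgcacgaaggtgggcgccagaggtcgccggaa
Pdhb: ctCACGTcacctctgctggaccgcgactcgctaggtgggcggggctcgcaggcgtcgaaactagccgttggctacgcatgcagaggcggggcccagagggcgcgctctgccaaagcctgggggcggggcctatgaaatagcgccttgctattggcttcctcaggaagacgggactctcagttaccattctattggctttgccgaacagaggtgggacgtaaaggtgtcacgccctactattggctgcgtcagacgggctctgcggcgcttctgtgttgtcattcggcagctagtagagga
Each of these regions held 1 copy of ACGTG on either strand. Slc2a1 was higher and the others lower in mean in Crlf2-/- hearts, and a link of the motif to these differences was not tested.

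Start regions were listed for 39 of the 42 genes. ACGTG was found on either strand in 10 of 18 glycolysis genes, among them Aldoa, Ldha, Pgk1 and Pkm, and in 6 of 21 TCA arm genes, against 21.8% of the 27025 genes with such a region. The letters AAGGTCA, the site of the estrogen-related receptors that regulate mitochondrial genes, were found in 2 of 18 glycolysis genes (Eno1 and Tpi1) and in 2 of 21 TCA arm genes (Ogdh and Sdhd), against 5.38% of all genes. Neither motif contains the other, both were searched on both strands, and a match is not a bound site. The 9 hypoxia response genes examined, such as Vegfa and Bnip3, had a median log2 difference of -0.02 (-0.0245) with 0 at an unadjusted p under 0.05.

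Among the abundant enzymes in the middle and at the end of glycolysis, levels were high and the means of the genotypes lay close together. Aldoa, the aldolase of muscle and most cells, was the highest member at 182 ± 22.7 FPKM in WT and 183 ± 26.5 FPKM in Crlf2-/- hearts (SD, n = 3). Pkm, pyruvate kinase, stood at 141, 135 and 99.3 FPKM in WT and at 133, 132 and 129 FPKM in Crlf2-/- hearts. Ldha, which forms lactate, stood at 133, 139 and 105 FPKM and at 120, 132 and 124 FPKM. Ldha, Pkm and Pgk1 followed Aldoa in the order of WT means at 126, 125 and 107 FPKM, which do not differ beyond their SD of 18.1 to 22.7 FPKM.

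Of the members near the middle of the list, Gpi1, Tpi1, Pgk1, Pgam1, Pfkl and Pfkp had log2 differences between -0.14 and 0.13 with SEs of 0.097 to 0.175. WT replicate 3 was the lowest library for 9 of the 19 glycolysis genes, including Pkm, Ldha, Tpi1 and Pgk1. Eno1b, a near-identical copy of the enolase gene Eno1, had 7.81, 7.78 and 4.94 FPKM in WT and 9.57, 7.65 and 7.72 FPKM in Crlf2-/- hearts. Several of these enzymes have such copies or processed pseudogenes, and how the authors' counting treated fragments that match more than 1 gene was not given in the sources used here, so levels of Eno1, Pgk1, Pgam1, Ldha and Gapdh are uncertain to that degree.

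Gapdh (ENSMUSG00000057666, chromosome 6, 125161715 to 125166467, minus strand), the glyceraldehyde 3-phosphate dehydrogenase between Tpi1 and Pgk1, behaved unlike its neighbours. It stood at 14.5, 1.07 and 0.762 FPKM in WT and at 0.702, 21.4 and 0.667 FPKM in Crlf2-/- hearts, from 1369, 97, 69, 64, 2074 and 62 fragments. Tpi1 and Pgk1 lay between 69.9 and 123 FPKM in the same libraries. WT replicate 1 and Crlf2-/- replicate 2 were thus high and the other 4 low, so the split ran across the genotypes. With 5 fragments added to each count, the lower of the high libraries was 13.5 times the highest of the other 4. Gapdh was the only gene in the table with such a ratio of at least 10, and the next gene reached 3.21.

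The 5 pseudogene entries with the enzyme name of Gapdh in their description held 4 fragments in all, and other copies were not looked for. Iffo1 overlaps Gapdh on the opposite strand and held 74.7% as many fragments over all libraries together. Most Gapdh fragments in that total came from WT replicate 1 and Crlf2-/- replicate 2. The strand setting of the counting was not given in the sources used here. The log2 difference of Gapdh was -0.05 with an SE of 1.67, and it ran from -1.64 without Crlf2-/- replicate 2 to 1.23 without WT replicate 1. Without Gapdh the glycolysis median stayed at 0.01 (0.00747). Gapdh was also the reference gene of the study's quantitative PCR, which is not analysed here.

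**Figure D3:**
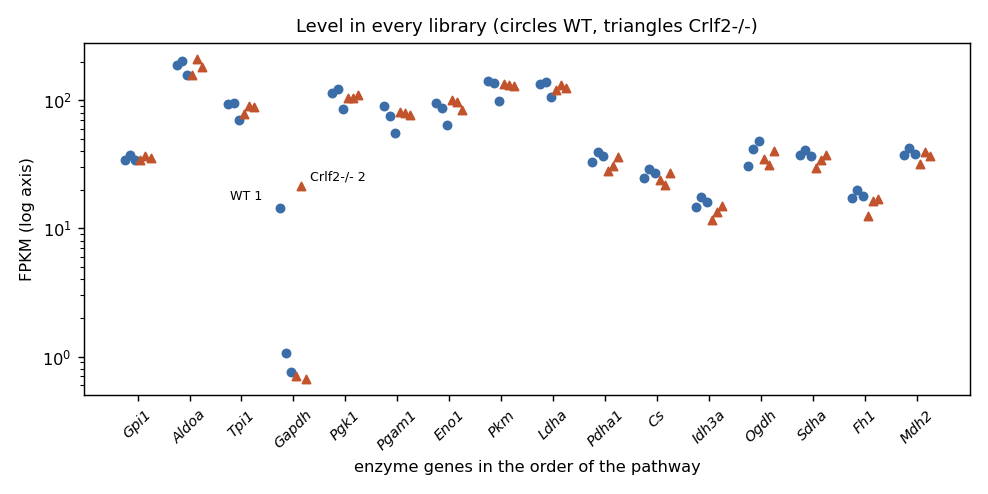
FPKM on a log axis for 16 enzyme genes in pathway order from glucose 6-phosphate isomerase (Gpi1) to mitochondrial malate dehydrogenase (Mdh2), 1 point per library, circles WT and triangles Crlf2-/-. Gapdh lies between 0.667 and 21.4 FPKM while the genes on either side lie above 69 FPKM.

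The pyruvate dehydrogenase complex was lower in mean throughout. All 5 subunit genes, Pdha1 and Pdhb for E1, Dlat for E2, Dld for E3 and Pdhx for the E3-binding protein, had log2 differences between -0.33 and -0.17, and 3 of them, Pdhb, Dld and Pdhx, showed no overlap between genotypes. Over the TCA arm 7 of 23 genes lay lower without overlap, where 6.37% of all genes tested did, and in glycolysis 0 did. Pdha1, the catalytic alpha subunit on the X chromosome, stood at 32.7, 39.4 and 36.6 FPKM in WT and at 28.2, 30.4 and 36.2 FPKM in Crlf2-/- hearts. Its groups overlapped, and the log2 difference was -0.20 (SE 0.129, adjusted p = 0.913 in limma).

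The other genes without overlap were Dlst, Suclg2 and Fh1 besides Mdh1. Dlst encodes the E2 core of the oxoglutarate dehydrogenase complex and stood at 10.7, 11.6 and 11.2 FPKM in WT and at 9.79, 9.84 and 10.2 FPKM in Crlf2-/- hearts. Fh1, fumarase, stood at 17.2, 19.8 and 17.9 FPKM and at 12.6, 16.4 and 17.1 FPKM. For Fh1 the nearest WT and Crlf2-/- libraries almost touched, and adjusted p-values were 0.856 for Dlst and 0.827 for Fh1 in limma. Without Crlf2-/- replicate 2, 9 TCA arm genes lay lower without overlap and 2 at an unadjusted p under 0.05, against 10.5% and 2.81% of all genes tested. Without Crlf2-/- replicate 1 these counts were 7 and 2, against 11.5% and 3.07%.

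Cs, citrate synthase, which opens the cycle, stood at 24.5, 29.2 and 27.2 FPKM in WT and at 23.8, 21.9 and 27.0 FPKM in Crlf2-/- hearts. The groups overlapped and the log2 difference was -0.15 (SE 0.119). The subunit genes of the larger enzymes all had lower means, by different amounts. The 4 succinate dehydrogenase genes Sdha to Sdhd, which also form complex II of the respiratory chain, had log2 differences of -0.29 to -0.18. The 4 isocitrate dehydrogenase genes Idh2, Idh3a, Idh3b and Idh3g ran from -0.28 to -0.11, the 3 oxoglutarate dehydrogenase genes Ogdh, Dlst and Dld from -0.17 to -0.16, and the 3 succinate-CoA ligase genes from -0.23 to -0.03. Pcx, pyruvate carboxylase, which feeds oxaloacetate into the cycle, was the exception to the lower means, with 1.87, 2.85 and 2.51 FPKM in WT, 1.72, 2.42 and 3.41 FPKM in Crlf2-/- hearts and a log2 difference of 0.03. Its fragments cannot be told apart from those of Lrfn4 on the opposite strand, which held 162% as many, if strand was not used in counting.

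**Figure D4:**
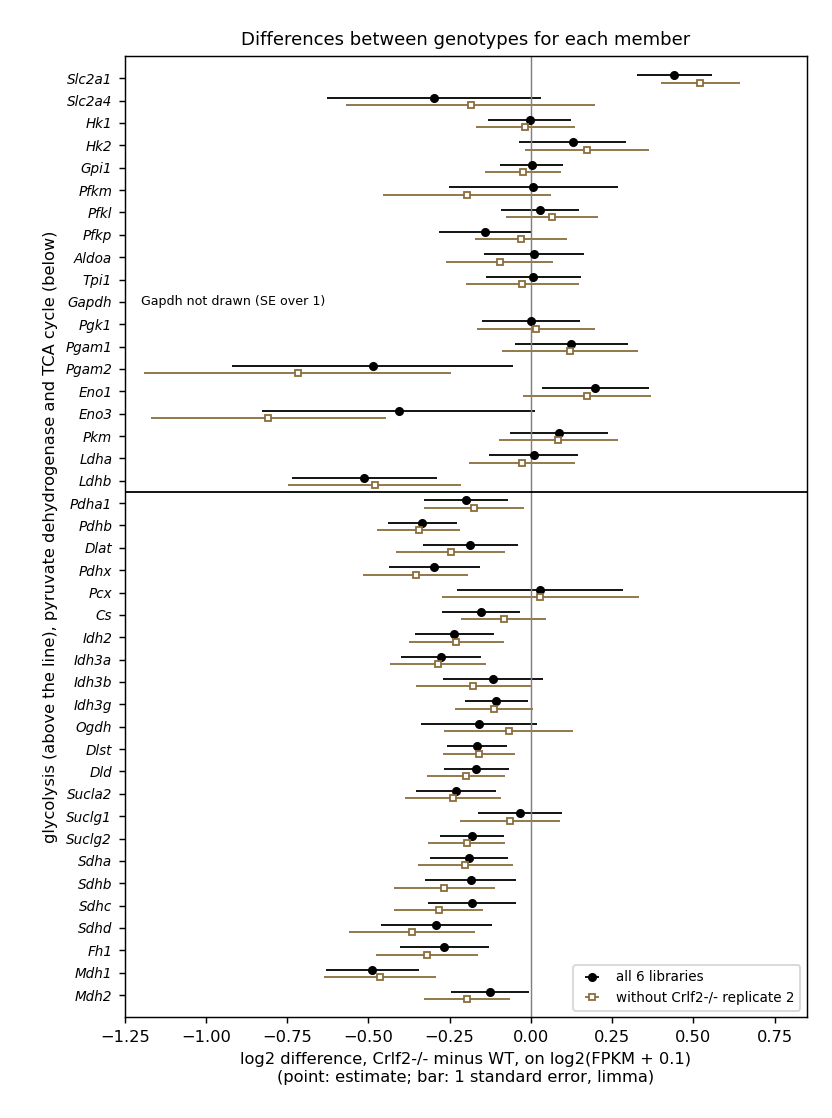
Log2 difference of each member, Crlf2-/- minus WT on log2(FPKM + 0.1), with 1 standard error from limma, for all 6 libraries (filled) and without Crlf2-/- replicate 2 (open). Below the line 22 of 23 filled points lie left of 0. Of the genes drawn, Eno3 and Pgam2 move furthest between the fits, and Gapdh is not drawn because its standard error exceeds 1.

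Of the 5 glycolysis members taken here as muscle isoforms, Ldhb, Eno3, Pgam2 and Slc2a4 had lower means in Crlf2-/- hearts and Pfkm did not. Without Crlf2-/- replicate 2 all 5 had lower means, with a median log2 difference of -0.48. Only 2 of the 5 were lower without Crlf2-/- replicate 1, where the median was 0.05. Hk2, which was not among these 5 isoforms, had a log2 difference of 0.13. Ldhb, the heart form of lactate dehydrogenase, which favours turning lactate back into pyruvate, stood at 32.6, 48.7 and 46.2 FPKM in WT and at 22.9, 28.1 and 39.3 FPKM in Crlf2-/- hearts. The groups overlapped in WT replicate 1 and Crlf2-/- replicate 3, and the log2 difference was -0.51 (SE 0.224, adjusted p = 0.765 in limma). Eno3 and Pgam2, the enolase and phosphoglycerate mutase of striated muscle, had log2 differences of -0.41 and -0.49, which became -0.81 and -0.72 without Crlf2-/- replicate 2. Without Crlf2-/- replicate 1 they were 0.10 and 0.05, so a single library set the direction of both. Eno1 and Pgam1, the forms of most cells, had differences of 0.20 and 0.12.

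Pfkm, the muscle phosphofructokinase that commits glucose to glycolysis, stood at 13.8, 19.6 and 19.6 FPKM in WT and at 11.6, 23.3 and 19.96 FPKM in Crlf2-/- hearts. Its highest value lay in the library with skeletal muscle transcripts. Senp1 on the opposite strand held 51.8% as many fragments as Pfkm, which bears on its level in the same way as for Pcx. Over all members, 6 symbols had an opposite-strand neighbour with more than 10% as many fragments, the others being Pfkp, Idh3b, Gapdh and the second Aldoa entry.

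Isoform shares within a library do not depend on scaling between libraries. Ldhb made up 19.7%, 26.0% and 30.6% of the summed Ldha and Ldhb FPKM in WT and 16.0%, 17.5% and 24.0% in Crlf2-/- hearts. Slc2a4 made up 25.8%, 41.3% and 37.8% of Slc2a1 and Slc2a4 in WT and 17.0%, 23.0% and 33.4% in Crlf2-/- hearts. In both cases the genotypes overlapped through WT replicate 1 and Crlf2-/- replicate 3. The difference in mean log2 ratio was -0.52 for Ldhb to Ldha and -0.76 for Slc2a4 to Slc2a1 (exact permutation test, two-sided, p = 0.2 each, where 3 mice against 3 cannot go below 0.1). With single libraries removed, the former was -0.33 (without WT replicate 3) at its smallest and -0.75 (without WT replicate 1) at its largest, and the latter -0.45 (without Crlf2-/- replicate 1) and -1.10 (without Crlf2-/- replicate 3).

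The difference was -0.62 for Pgam2 to Pgam1 and -0.61 for Eno3 to Eno1 (exact p = 0.5 each), 0.13 for Hk2 to Hk1 (exact p = 0.2), 0.04 for Pfkm to Pfkl plus Pfkp (exact p = 1) and -0.05 for Sucla2 to Suclg2 (exact p = 0.7). Without Crlf2-/- replicate 1 the differences for Pgam2 and Eno3 were -0.05 (-0.0545) and -0.05 (-0.0491), so that library carried them. In all, 7 ratios were compared and the groups overlapped for each. Adjusted over these 7 by the Benjamini-Hochberg method, the exact p-values were at least 0.467.

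**Figure D5:**
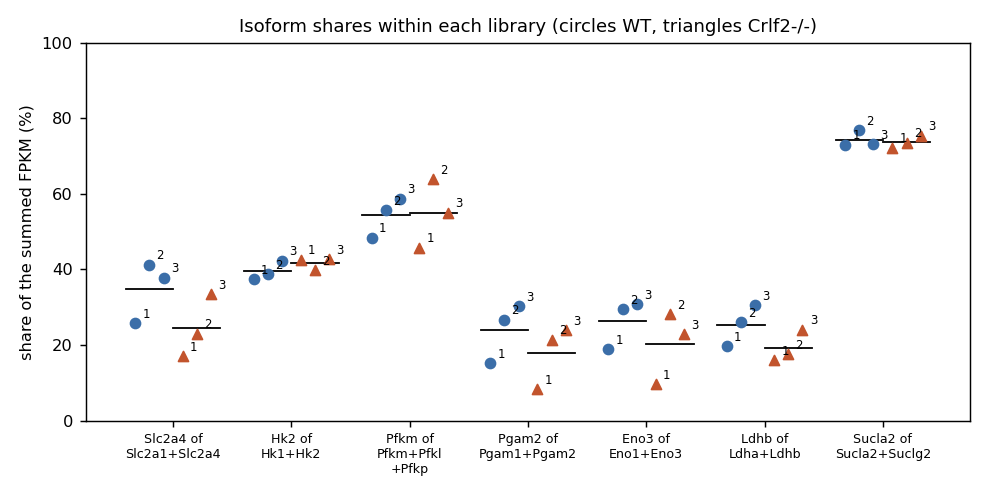
Share of 1 isoform in the summed FPKM of its step, in percent, for 7 steps and 6 libraries. Circles are WT, triangles Crlf2-/-, numbers the replicates and lines the mean of 3 mice. Crlf2-/- replicate 1 has the lowest share of Slc2a4, Pfkm, Pgam2, Eno3, Ldhb and Sucla2, but not of Hk2.

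Further genes of carbohydrate and pyruvate metabolism and their regulators were examined as lists of 85 symbols. Of these 79 were tested, 0 were called in limma and 4 were lower and 1 higher at an unadjusted p under 0.05, with a median log2 difference of -0.01 (-0.0142). These counts are 5.06% and 1.27% of the genes tested from the lists, against 3.36% and 3.22% of all genes tested. The median was 0.04 over 24 tested genes of wider glycolysis, -0.09 over 13 genes of pyruvate transport and control, -0.05 over 22 genes around the TCA cycle and -0.01 over 20 regulators. The pyruvate list stood at 0.02 without Crlf2-/- replicate 1, the wider glycolysis list at -0.01 without WT replicate 1, and the regulators at -0.12 without that library and at 0.05 when WT replicate 3 was left out, so these directions rest on single libraries. The list around the TCA cycle stayed between -0.10 and -0.03. Mpc1 and Mpc2, the mitochondrial pyruvate carrier, had log2 differences of -0.09 and -0.14 with overlapping groups.

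The smallest p-value of these lists belonged to Pdk4 (ENSMUSG00000019577, chromosome 6, 5483351 to 5496309, minus strand). Its product phosphorylates and so inhibits pyruvate dehydrogenase, and it is high in hearts that burn fatty acids. Pdk4 stood at 9.95, 15.01 and 15.8 FPKM in WT and at 4.23, 6.35 and 8.07 FPKM in Crlf2-/- hearts, without overlap. The log2 difference was -1.13 (SE 0.256) with an adjusted p of 0.263 in limma, and without Crlf2-/- replicate 2 it was -1.17. The other kinases of the complex did not share one direction, with log2 differences of 0.0050 for Pdk1, -0.29 for Pdk2 and 0.22 for Pdk3.

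Txnip, which limits glucose uptake, had a log2 difference of -0.48, at 117, 117 and 106 FPKM in WT and 72.5, 79.1 and 93.2 FPKM in Crlf2-/- hearts. Small p-values were also found for Slc16a1, a lactate and pyruvate carrier, with a log2 difference of -0.46, Pfkfb1 with 0.71 and Pdk3 with 0.22. Slc16a1 overlapped between genotypes, and Txnip, Pfkfb1 and Pdk3 did not. The adjusted p-values of these genes and Pdk4 ran from 0.263 to 0.803 in limma.

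Marker lists of other cell types in the tissue had medians on either side of 0. Median log2 differences were 0.10 over 12 macrophage markers, led by Lyz2 and C1qb, 0.22 over 7 tested neutrophil markers, led by Csf3r and S100a9, 0.01 over 11 fibroblast markers, led by Col1a1 and Col3a1, 0.11 over 8 smooth muscle markers, led by Acta2 and Des, and -0.13 over 10 endothelial markers, led by Cdh5 and Pecam1. They were -1.03 over 12 T cell markers, -3.27 over 7 tested plasma cell markers, -1.29 over 5 tested red blood cell markers and -1.76 over 4 tested adipocyte markers. Of the tested adipocyte markers, 0 reached an unadjusted p under 0.05 and 0 lay without overlap. The 7 listed adipocyte markers summed to 8.02, 70.0 and 11.4 FPKM in WT and 1.69, 1.33 and 32.5 FPKM in Crlf2-/- hearts, highest in WT replicate 2. The median was 1.84 over 5 tested skeletal muscle markers and 0.11 without Crlf2-/- replicate 2. Over 2 tested atrial markers it was 0.36, and -0.21 without Crlf2-/- replicate 2, where Myl4 stood at 6.94 FPKM against no more than 0.681 FPKM elsewhere. The 1 tested lung marker, Ager, had -0.06. Without WT replicate 3 the macrophage median was -0.04, the neutrophil median -0.02 and the fibroblast median -0.03, so these directions rest on single libraries. The summed macrophage markers were 4501, 3308 and 2512 FPKM in WT and 3658, 3491 and 3017 FPKM in Crlf2-/- hearts. The macrophage marker median relative to WT means was 0.35, -0.08 and -0.26 in WT. In Crlf2-/- hearts it was 0.05, 0.20 and -0.09. WT replicate 3 had the lowest sum and a glycolysis median of -0.10. Crlf2-/- replicate 1, at 3658 FPKM, had the lowest glycolysis median, -0.11. The part of macrophages in the glycolysis values was not tested.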

How the data were processed

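Bulk RNA sequencing was analysed from 3 WT and 3 Crlf2-/- infarcted hearts on day 7, grouped by the genotype in the labels. The authors deposited FPKM per gene with gene lengths, after trimming, alignment (HISAT2 2.0.5 in the submitters' processing notes, which name both mm10 and hg38) and counting of fragments per gene. Strand use was not given in the sources used here. FPKM times length gave whole fragments for 100% of nonzero values (tolerance 0.05), and 42 of the 43 member entries had the positions of GENCODE M21.

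Libraries were scaled with trimmed mean of M values factors from these fragments. Genes needed at least 10 fragments in 3 libraries and 15 in total. limma 3.58.1 in R 4.3.3 (lmFit, then eBayes with trend and robust options) was applied to log2(FPKM + 0.1) and tested on simulated data. Values were summarised with Python 3.11.15, numpy 2.4.6, pandas 2.3.3, scipy 1.17.1 and matplotlib 3.10.9. Depth covers counting error only, and no member had fewer than 62 fragments in a library.

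The members and all lists were chosen with earlier results of these data known. Values in every library were given for members with an unadjusted p under 0.05, for those without overlap and a log2 difference of at least 0.5, and for Gapdh, Pdha1, Cs, Ldha, Ldhb, Pfkm and Pkm with others as examples. Of the wider lists, the 6 genes with the smallest p were named, except for a result that is not reported here. Alternatives were pseudocounts of 1 and 0.01, other filters and scalings, voom, a replicate block and leaving out each library. Leaving out Gapdh was added after seeing the data.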

Additional observations from a re-analysis of the deposited data

How the results depend on the processing

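Of 1135 comparisons of a value with an alternative, 1068 stayed the same, 27 moved and 40 reversed, and 0 members were called under any of them. The number of genes called, 2, became 6 with no filter, 1 with at least 10 fragments in every library and 4 with the replicate block, and ran from 1 to 14 with each library left out (14 without Crlf2-/- replicate 1, 8 without WT replicate 3, and 1 without WT replicate 1, WT replicate 2 or Crlf2-/- replicate 3). Members lower at an unadjusted p under 0.05, which were 2, became 5 with the replicate block and 4 with voom, and ran from 1 (without WT replicate 2) to 6 (without Crlf2-/- replicate 3), against 3.7%, 3.22%, 1.84% and 4.16% of all genes tested in turn. Libraries that share a replicate number deviated from their group means with r of -0.0163, 0.115 and 0.119 across 15520 genes, which does not establish that the numbers pair mice. Members lower without overlap ran from 7 to 16 (16 without WT replicate 3 or Crlf2-/- replicate 3, 14 without WT replicate 1, against 13.5%, 11.6% and 11.4% of all genes tested). Members higher without overlap ran from 1 to 2. They were 2 without WT replicate 1, Crlf2-/- replicate 1 or Crlf2-/- replicate 3, against 10.3%, 11% and 9.92% of all genes tested. With fewer libraries, groups overlap less by construction. The cause of the other changes was not tested.

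With each library left out, the log2 ratio difference of Pfkm to Pfkl plus Pfkp ran from -0.23 to 0.31 and that of Sucla2 to Suclg2 from -0.11 to 0.047. Of the 42 members 25 kept their direction in every alternative and 17 did not, and 36 of their 588 comparisons reversed. With FPKM as deposited Gpi1 was at -0.00036 and Pgk1 at -0.0027, and with a pseudocount of 1 Gapdh was at 0.056. With single libraries left out, the lowest and highest log2 differences were -0.10 and 0.076 for Hk1, -0.032 and 0.25 for Hk2, -0.023 and 0.044 for Gpi1, -0.20 and 0.30 for Pfkm, -0.062 and 0.079 for Pfkl, -0.095 and 0.11 for Aldoa, -0.13 and 0.087 for Tpi1, -1.64 and 1.23 for Gapdh, -0.15 and 0.11 for Pgk1, -0.069 and 0.28 for Pgam1, -0.80 and 0.052 for Pgam2, -0.81 and 0.096 for Eno3, -0.072 and 0.18 for Pkm, -0.11 and 0.087 for Ldha, -0.21 and 0.26 for Pcx, -0.24 and 0.0099 for Idh3b, and -0.11 and 0.070 for Suclg1. The scaling between libraries moved the median of all genes by no more than 0.00348 on the log2 scale. Differences smaller than the spread of 3 mice could not be shown at this number of animals.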
